A study of Mus musculus with 11 samples.

Results

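The core genes of Reelin signalling, Reln, Dab1, Vldlr and Lrp8, were followed through the classes of neurons and glia in mouse cerebellum, brainstem and cervical spinal cord. They were taken by their gene symbols and are 4 of the 25827 genes in the deposited count matrices. Their counts were summed per library within classes of nuclei defined by marker genes, and the summed values were compared between sample groups. The gene Dab1 was also named by the study from these same libraries, so its place among these genes is not an independent choice.

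Reelin, the product of Reln, is a large secreted glycoprotein that guides the placement of migrating neurons during development and modulates synapses in the adult brain. It binds a pair of lipoprotein receptors at the cell surface, encoded by Vldlr and Lrp8. Both receptors bind the cytoplasmic adaptor encoded by Dab1, which is phosphorylated by Src family kinases and passes the signal to the cytoskeleton and the PI3K pathway. In the cerebellum, Reelin from the granule cell lineage directs the placement of Purkinje cells, and mice that lack Reln, Dab1 or both receptors have a small, disordered cerebellum and ataxia.

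Single-nucleus RNA sequencing had been performed on adult male mice aged 8 to 12 weeks, whose cerebellum was pooled with the cervical spinal cord and the brainstem of 1 hemisphere. All mice carried loxP sites in both copies of Il12rb2, a chain of the receptor for interleukin-12 (Il12rb2fl/fl). The NestinCre/+Il12rb2fl/fl mice also carried a Nestin-driven Cre recombinase. Nestin is made by the neural precursors that give rise to neurons, astrocytes and oligodendrocytes but not to microglia, so that the deletion is not specific to any 1 class described here. Experimental autoimmune encephalomyelitis (EAE), a model of multiple sclerosis induced by immunization with a myelin peptide, was sampled at day 10. The groups held 4 Il12rb2fl/fl mice with EAE (fl EAE), 4 NestinCre/+Il12rb2fl/fl mice with EAE (NestinCre EAE), 2 Il12rb2fl/fl mice without EAE (fl naive) and 1 NestinCre/+Il12rb2fl/fl mouse without EAE (NestinCre naive). Replicates 1 to 3 of the EAE groups were sequenced in run 1, their replicates 4 in run 2 together with fl naive 2, and the remaining naive mice (fl naive 3 and NestinCre naive 2) in run 3.

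The 11 libraries held 40761007 to 86063464 unique molecular identifiers (UMIs, each standing for 1 captured RNA molecule). After quality limits and the removal of doublets, 159374 nuclei remained, of which 145335 were named as 1 of 14 classes, 8 of neurons and 6 of glia. Clusters that met too few markers, or whose leading genes or markers belonged to another class, held 8.57% of the kept nuclei (4.75% to 13.1% per library) and were left unnamed. Any pair of libraries shared 47 to 140 barcodes, at most 0.692% of the smaller library. Il12rb2, the targeted gene, was at 17.1 ± 3.28 UMIs per 1000000 (CPM) in granule cell-like nuclei of the fl EAE group and at 17.1 ± 4.73 CPM in the NestinCre EAE group (SD, n = 4 each), so its counts did not separate the genotypes. The counts cover the whole gene with its introns, and which part of them comes from the deleted stretch is not given in the sources used here.

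The members lie on 3 chromosomes of the GRCm39 genome (GENCODE vM39 annotation). Reln (ENSMUSG00000042453) spans chr5:22089452-22549700 on the minus strand, Dab1 (ENSMUSG00000028519) chr4:103476556-104602041 on the plus strand, Vldlr (ENSMUSG00000024924) chr19:27193862-27231631 on the plus strand and Lrp8 (ENSMUSG00000028613) chr4:107659066-107734038 on the plus strand. Because reads within introns were counted and the genes run from 37.8 kb (Vldlr) to 1125 kb (Dab1), a level of 1 gene is compared below only with the level of the same gene in other classes. The promoters of Reln and Dab1 are shown because these members stood highest in different neurons of the cerebellar cortex, as given below. Both sequences, of 300 bases each, are from RefSeq (GRCm38.p6), and the capitals mark GC boxes, the 6-base element GGGCGG or its complement CCGCCC, searched on both strands.
Reln, chr5:22344656-22344955, minus strand: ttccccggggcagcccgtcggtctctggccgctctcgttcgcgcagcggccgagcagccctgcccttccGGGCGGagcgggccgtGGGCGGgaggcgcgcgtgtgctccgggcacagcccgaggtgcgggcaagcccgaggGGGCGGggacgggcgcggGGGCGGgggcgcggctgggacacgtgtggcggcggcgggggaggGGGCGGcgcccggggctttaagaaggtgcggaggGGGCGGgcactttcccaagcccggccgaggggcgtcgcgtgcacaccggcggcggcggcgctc
Dab1, chr4:104367288-104367587, plus strand: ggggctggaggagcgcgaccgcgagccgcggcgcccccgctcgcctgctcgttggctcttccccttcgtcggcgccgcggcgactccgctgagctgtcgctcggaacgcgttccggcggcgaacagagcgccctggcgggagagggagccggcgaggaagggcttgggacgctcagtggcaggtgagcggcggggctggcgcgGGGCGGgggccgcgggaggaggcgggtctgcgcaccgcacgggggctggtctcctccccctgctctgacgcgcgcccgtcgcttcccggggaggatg
The Reln promoter was 80.7% G or C and held 6 GC boxes, a number reached by 1.35% of the 32851 promoters in the table, of which 35.7% held at least 1. The Dab1 promoter shown held 1 GC box. The other listed Dab1 promoter lies upstream of it on the same strand, at chr4:103619250-103619549 (GRCm38.p6), and held 0. The 2 promoters of Vldlr held 0 and 1 GC box, and the 3 promoters of Lrp8 held 0.

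Reln, the ligand, was by far highest in granule cells, the small excitatory neurons of the cerebellar cortex. In granule cell-like nuclei it was at 1110.0, 1089.9, 1103 and 1210.1 CPM in fl EAE 1 to 4, at 1221, 1118, 1195 and 1111 CPM in NestinCre EAE 1 to 4, at 1149 and 1064 CPM in fl naive 2 and 3, and at 1049 CPM in NestinCre naive 2. These 11 values lay close together, and the EAE groups overlapped. Granule cell-like nuclei held 91.4% of all Reln UMIs found in named nuclei and were the class with the highest Reln level in 4 of 4 groups. The fl EAE mean of 1128 ± 55.2 CPM was 3.61 times that of the second class, unipolar brush cell-like nuclei (312 ± 87.4 CPM), a further type of excitatory neuron of the granular layer. Excitatory neuron-like nuclei outside the cerebellar cortex followed at 172 ± 17.4 CPM (SD, n = 4 each). The ranges over libraries of these top 3 classes did not overlap, whereas every later class overlapped the next one in the order.

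**Figure D1:**
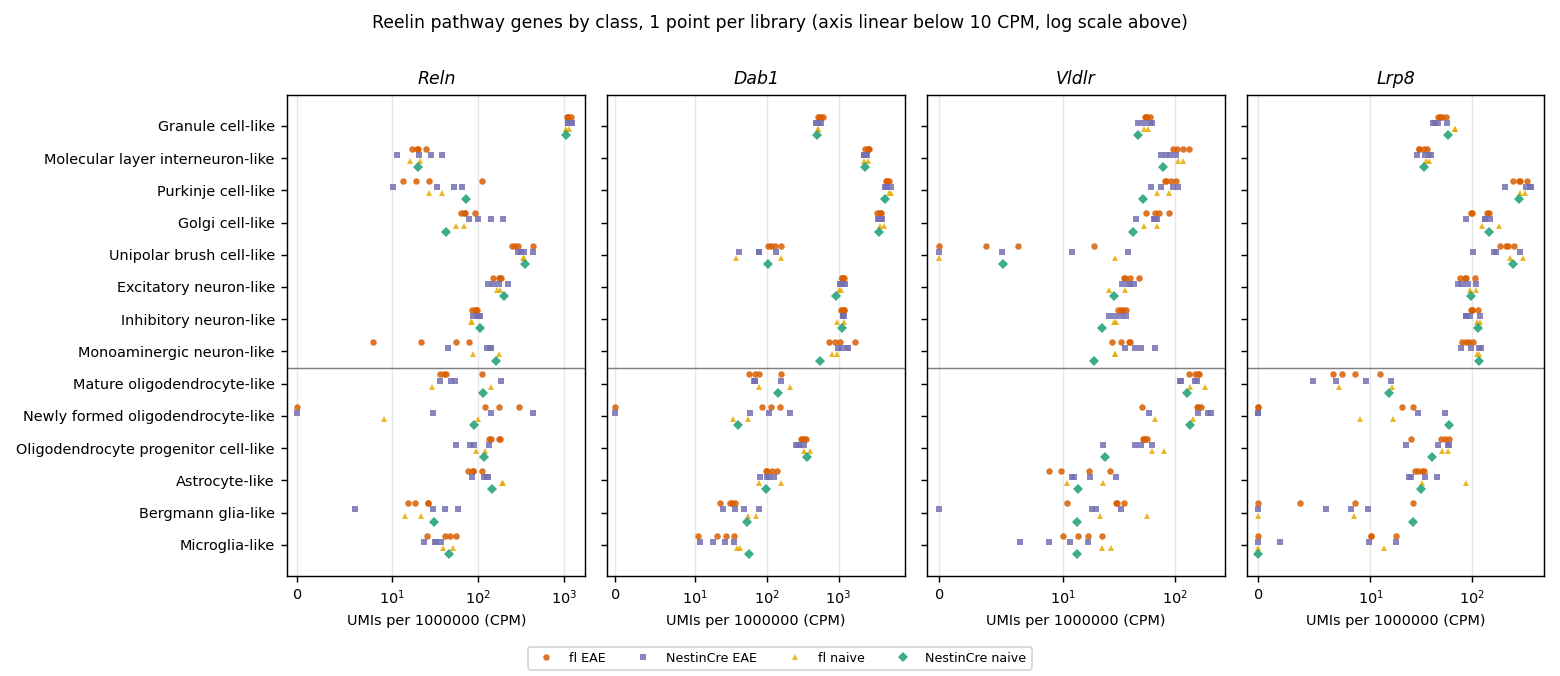
Level of each member (x axis, CPM, linear below 10 and logarithmic above) in each of the 14 classes (y axis), with 1 point per library and a colour and shape per group; a grey line separates neurons from glia. Reln is highest in granule cell-like nuclei, between 1049 and 1221 CPM in all 11 libraries, while Dab1 is highest in Purkinje cell-like nuclei, between 4415 and 5408 CPM.

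The lowest Reln level of all classes was that of molecular layer interneuron-like nuclei, the inhibitory cells above the Purkinje layer, at 20.2 ± 3.28 CPM in fl EAE mice. Purkinje cell-like nuclei were at 26.8, 19.0, 13.2 and 110.2 CPM in fl EAE 1 to 4, with a single library far above the other 3. In that library the summed granule cell markers of Purkinje cell-like nuclei were also highest, at 807 CPM against 190.0 to 238 CPM in fl EAE 1 to 3. To compare classes of unequal depth, each nucleus was thinned to 1000 UMIs and shallower nuclei were left out. Reln then had a UMI in 64.6% ± 2.12 of granule cell-like nuclei of the fl EAE group (86.3% before thinning, median depth 2368 UMIs, 1152 shallower nuclei left out). The share was 5.83% ± 2.15 in microglia-like nuclei, immune cells taken here as a background class (46 shallower nuclei left out), and 2.05% ± 0.821 in molecular layer interneuron-like nuclei. The 16.9% ± 6.93 of unipolar brush cell-like and the 14.0% ± 1.89 of excitatory neuron-like nuclei lay above that of microglia-like nuclei. In fl EAE libraries the summed granule cell markers were 1718 to 2425 CPM in unipolar brush cell-like and 860 to 946 CPM in excitatory neuron-like nuclei. They were 8113 to 8761 CPM in granule cell-like nuclei. Their part in the Reln of the other classes was not tested.

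The spread of Reln between clusters differed from class to class. All 10 granule cell-like clusters of at least 50 nuclei lay between 998 and 1280 CPM of Reln. The 17 excitatory neuron-like clusters of that size ran from 16.6 to 1146 CPM, with the top value in a cluster of 292 nuclei led by Pde11a, a cyclic nucleotide phosphodiesterase. That cluster had a Dab1 level of 85.4 CPM. The 23 inhibitory neuron-like clusters ran from 27.2 to 330.2 CPM of Reln, and the highest of them, of 93 nuclei, was led by Meis2 and Lamp5. The clusters were drawn from the same nuclei with the 4 members left out of the variable genes, so these values are descriptions without a test.

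**Figure D2:**
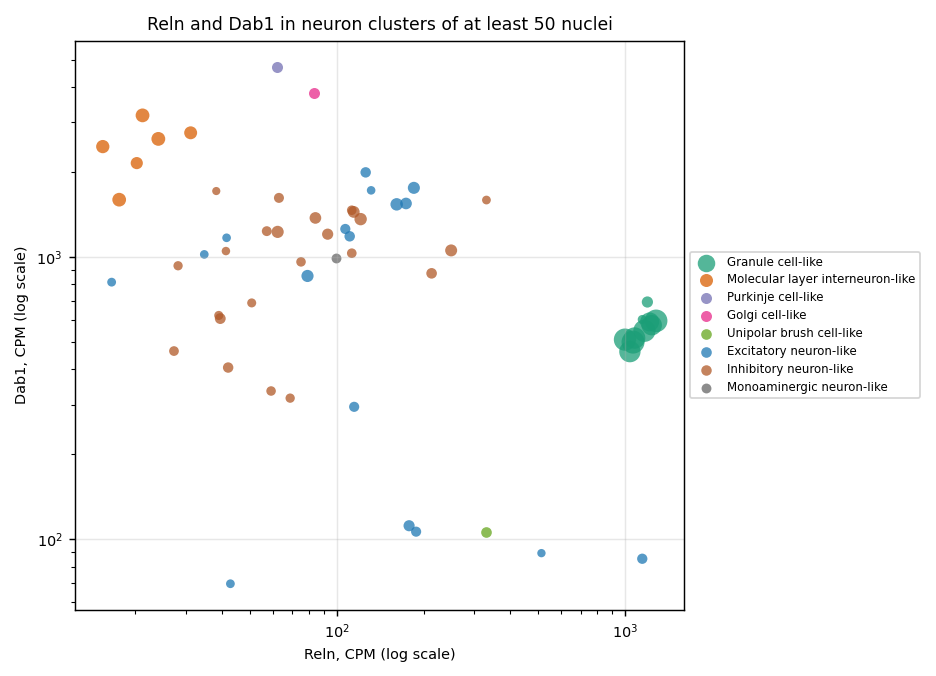
Reln (x axis, CPM, log scale) against Dab1 (y axis, CPM, log scale) in the neuron clusters of at least 50 nuclei, pooled over the 11 libraries; point size grows with the number of nuclei and colour gives the class. The 10 granule cell-like clusters sit together at 998 to 1280 CPM of Reln, the 6 molecular layer interneuron-like clusters at 15.4 to 31.1 CPM of Reln and 1596 to 3174 CPM of Dab1, and the excitatory neuron-like clusters spread from 69.7 to 1994 CPM of Dab1.

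Of the receptors, Vldlr reached its highest fl EAE mean in mature oligodendrocyte-like nuclei, the myelinating cells. It was there at 133, 162, 165 and 152 CPM in fl EAE 1 to 4 and at 115, 111, 157 and 153 CPM in NestinCre EAE 1 to 4. The naive libraries were at 186 CPM (fl naive 2), 137 CPM (fl naive 3) and 130 CPM (NestinCre naive 2), so that the EAE groups overlapped and the single NestinCre naive library lay below the fl EAE and fl naive libraries. The fl EAE mean of 153 ± 14.3 CPM was followed by newly formed oligodendrocyte-like nuclei at 136 ± 57.3 CPM and molecular layer interneuron-like nuclei at 114 ± 16.9 CPM. Mature oligodendrocyte-like nuclei were highest in 2 of 4 groups, and 12 of the 13 neighbouring pairs in the order overlapped, so the order of most classes is not resolved. After thinning, 13.4% ± 0.988 of mature oligodendrocyte-like nuclei had a Vldlr UMI, against 10.2% ± 1.05 of molecular layer interneuron-like, 5.40% ± 0.312 of granule cell-like and 1.29% ± 0.872 of microglia-like nuclei. The 2 largest mature oligodendrocyte-like clusters held 8886 and 11538 nuclei and had 164 and 147 CPM of Vldlr.

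Purkinje cell-like nuclei had a Vldlr level of 90.6 ± 9.44 CPM and Golgi cell-like nuclei, large inhibitory neurons of the granular layer, 70.8 ± 13.7 CPM. Unipolar brush cell-like nuclei had the lowest, with 4 UMIs of Vldlr in 115 nuclei of the 4 fl EAE libraries.

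Lrp8, the other receptor, was highest in Purkinje cells, the output neurons of the cerebellar cortex. In Purkinje cell-like nuclei it was at 297, 292, 253 and 347 CPM in fl EAE 1 to 4, at 381, 373, 211 and 341 CPM in NestinCre EAE 1 to 4, at 298 and 332 CPM in fl naive 2 and 3, and at 293 CPM in NestinCre naive 2. The EAE groups overlapped, fl naive values lay within the range of both, and the NestinCre naive value lay just below that of fl naive 2. The fl EAE mean of 297 ± 38.7 CPM overlapped that of unipolar brush cell-like nuclei (225 ± 29.5 CPM), and both lay above Golgi cell-like nuclei (122 ± 26.5 CPM) and inhibitory neuron-like nuclei (103 ± 7.65 CPM). Mature oligodendrocyte-like nuclei, the highest class for Vldlr, were the lowest of the 14 for Lrp8, at 8.84 ± 2.59 CPM. A Lrp8 UMI was seen after thinning in 27.3% ± 6.23 of Purkinje cell-like, 25.1% ± 9.68 of unipolar brush cell-like and 0.975% ± 0.320 of mature oligodendrocyte-like nuclei, the last being close to the 0.829% ± 0.963 of microglia-like nuclei.

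Dab1, the adaptor, had its highest level in Purkinje cell-like nuclei, where Lrp8 was also highest. It was at 5021, 4774, 4626 and 4753 CPM in fl EAE 1 to 4, at 5408, 4553, 4487 and 4668 CPM in NestinCre EAE 1 to 4, at 5329 and 5008 CPM in fl naive 2 and 3, and at 4415 CPM in NestinCre naive 2. The EAE groups overlapped, and NestinCre naive 2 was the lowest of the 11 libraries. In the fl EAE group Golgi cell-like nuclei followed at 3712 ± 221 CPM and molecular layer interneuron-like nuclei at 2538 ± 146 CPM, and the ranges of these top 3 classes did not overlap (Purkinje cell-like mean 4793 ± 165 CPM). Inhibitory neuron-like (1150.2 ± 57.0 CPM), excitatory neuron-like (1132 ± 33.0 CPM) and monoaminergic neuron-like nuclei (1089.9 ± 408 CPM) overlapped one another. Granule cell-like nuclei were at 554 ± 40.3 CPM, below these 6 classes and above oligodendrocyte progenitor-like nuclei at 324 ± 20.1 CPM, the highest of the glia. Microglia-like nuclei had 23.4 ± 10.3 CPM. Granule cell-like nuclei, first for Reln, thus ranked 7 of 14 for Dab1, and molecular layer interneuron-like nuclei, last for Reln, ranked 3.

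After thinning, Dab1 had a UMI in 93.3% ± 2.73 of Purkinje cell-like, 95.5% ± 2.06 of Golgi cell-like, 87.6% ± 1.82 of molecular layer interneuron-like, 40.1% ± 2.37 of granule cell-like and 2.06% ± 1.07 of microglia-like nuclei. Within molecular layer interneuron-like nuclei the 6 clusters ran from 1596 to 3174 CPM of Dab1. Excitatory neuron-like nuclei held clusters of a different kind. Of their 17 clusters, 5 lay between 69.7 and 112 CPM of Dab1, 1 at 295 CPM and the other 11 between 815 and 1994 CPM. The 5 low clusters held 42.7 to 1146 CPM of Reln, so that a low Dab1 level occurred with both high and low Reln. Across the 14 class means the logarithms of Dab1 and Lrp8 correlated at r = 0.724, and the other 5 pairs of members between -0.139 and 0.384. The points share libraries and are given as a description.

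The effect of the deletion in EAE was then examined for each member in 13 classes, with newly formed oligodendrocyte-like nuclei left out because some libraries held under 10. UMIs summed per library were compared with edgeR's quasi-likelihood test with Benjamini-Hochberg adjustment over all genes tested in a class, with the sequencing run in the model. Of all 107492 tests of a gene in a class, 0.834% passed an adjusted p of 0.05. The members gave 42 such tests, and 10 pairs of member and class did not reach the minimum count, among them all 4 members in Bergmann glia-like nuclei. None of the 42 passed (smallest adjusted p 0.0651). An unadjusted p under 0.05 was seen in 6, of which 2 were higher in the NestinCre EAE group, and DESeq2 called 0 with 4 at an unadjusted p under 0.05. By share, 14.3% of member tests and 7.37% of all tests were under an unadjusted p of 0.05. The p-values measure the spread between these mice and libraries.

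The estimates were narrow where a member was high. Reln in granule cell-like nuclei had a log2 fold change of 0.03 (95% interval -0.18 to 0.24), between group means of 1128 ± 55.2 and 1161 ± 55.2 CPM. Dab1 differed by -0.00 (-0.19 to 0.18) in Purkinje cell-like, 0.05 (-0.14 to 0.24) in Golgi cell-like, -0.09 (-0.27 to 0.09) in molecular layer interneuron-like and -0.09 (-0.30 to 0.12) in granule cell-like nuclei. These intervals spanned folds from 0.809 to 1.19. Lrp8 in Purkinje cell-like nuclei differed by 0.16 (-0.15 to 0.47) and Vldlr in mature oligodendrocyte-like nuclei by -0.20 (-0.52 to 0.12), with intervals that reached folds of 1.39 and 0.698. When single libraries were left out, the first ran from 0.061 (without NestinCre EAE 1) to 0.27 (without NestinCre EAE 3) and the second from -0.32 (without NestinCre EAE 3) to -0.099 (without NestinCre EAE 2). Of the 42 estimates, 34 lay within 0.25 of 0 on the log2 scale.

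**Figure D3:**
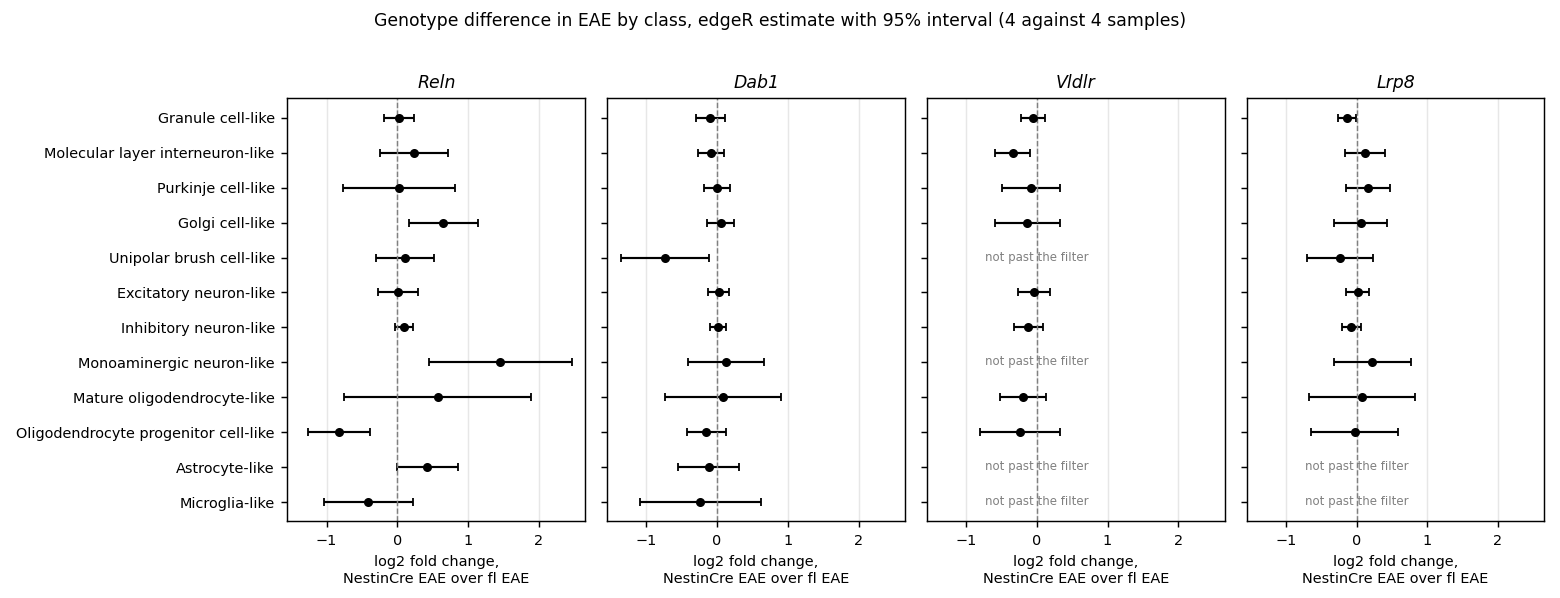
Log2 fold change of NestinCre EAE over fl EAE (x axis) for each member and class (y axis), with points for the edgeR estimate and bars for the 95% interval (4 against 4 samples). Pairs under the minimum count are marked, and Bergmann glia-like nuclei, in which no member reached it, are left out. Most intervals cross 0, and those of Dab1 in Purkinje cell-like and Reln in granule cell-like nuclei lie within 0.24 of it.

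The pair nearest to the threshold was Reln in oligodendrocyte progenitor-like nuclei, the dividing precursors of myelinating cells. Its level was 141, 177, 135 and 174 CPM in fl EAE 1 to 4 and 80.8, 88.9, 132 and 55.8 CPM in NestinCre EAE 1 to 4, with 93.9 and 120.3 CPM in fl naive 2 and 3 and 118 CPM in NestinCre naive 2. Every NestinCre EAE library lay below every fl EAE library. The log2 fold change was -0.83 (95% interval -1.27 to -0.39, adjusted p = 0.0651), in a class where 0.744% of the 5642 genes tested were called. It rested on 222 UMIs in 349 nuclei against 112 UMIs in 356 nuclei.

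Much of this Reln came from a single progenitor-like cluster of 133 nuclei, in which 26.1% of nuclei had been called doublets before their removal. It held 46.2% to 88.6% of the Reln UMIs of the class per library and 6.82% to 19.8% of its nuclei. Without it Reln was at 60.9, 43.2, 33.3 and 40.1 CPM in fl EAE 1 to 4 and at 22.7, 23.9, 45.1 and 32.2 CPM in NestinCre EAE 1 to 4, the groups overlapped, and the gene no longer reached the minimum count. The summed level of the 9 granule cell markers in progenitor-like nuclei was 1326 to 1782 CPM in fl EAE and 916 to 1681 CPM in NestinCre EAE libraries, with 0 of the 9 at 0, and their part in the result was not tested. Under an upper limit of 6000 UMIs per nucleus the log2 fold change was -0.41 (adjusted p = 0.809), and within run 1 it was -0.54 (adjusted p = 0.483). It was -0.53 without fl EAE 4 and -0.54 without NestinCre EAE 4 (adjusted p = 0.487 and 0.505). It passed the threshold without fl EAE 3 (adjusted p = 0.0433) and without NestinCre EAE 3 (adjusted p = 0.00693), and the adjusted p was 0.304 in DESeq2.

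**Figure D4:**
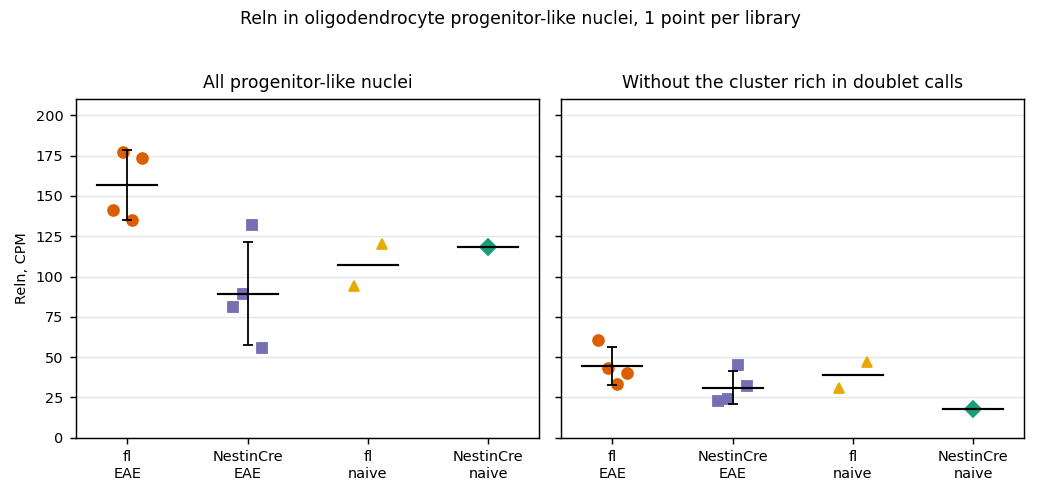
Reln level (y axis, CPM) in oligodendrocyte progenitor-like nuclei by group, with 1 point per library, a line at the mean and bars of 1 SD for groups of 4. The left panel holds all progenitor-like nuclei, where the NestinCre EAE libraries lie below the fl EAE libraries; the right panel leaves out the cluster rich in doublet calls, where levels fall to 17.8 to 60.9 CPM and the groups overlap.

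Among the other pairs under an unadjusted p of 0.05, Vldlr in molecular layer interneuron-like nuclei was at 104, 135, 119.6 and 96.9 CPM in fl EAE 1 to 4 and at 74.9, 90.0, 84.0 and 102 CPM in NestinCre EAE 1 to 4. Replicate 4 of the NestinCre EAE group lay within the fl EAE range and the other 3 below it. The log2 fold change was -0.34 (95% interval -0.59 to -0.10, adjusted p = 0.422). Vldlr was lower in the NestinCre EAE group in 8 of the 8 classes tested, by 0.04 to 0.34 on the log2 scale, with no class past the threshold; these classes come from the same 8 libraries. The sign turned under at least 1 alternative setting in Purkinje cell-like (up to 0.089), excitatory neuron-like (up to 0.11) and inhibitory neuron-like nuclei (up to 0.0014). Lrp8 in granule cell-like nuclei differed by -0.14 (adjusted p = 0.510), Reln in Golgi cell-like nuclei by 0.65 (adjusted p = 0.643), Dab1 in unipolar brush cell-like nuclei by -0.74 (adjusted p = 0.971) and Reln in monoaminergic neuron-like nuclei by 1.46 (adjusted p = 0.999). For Reln in Golgi cell-like nuclei the NestinCre EAE libraries 1 to 4 were at 197, 101, 140 and 77.5 CPM and the fl EAE libraries at 63.5 to 91.9 CPM, and the summed granule cell markers were highest, at 1146 CPM, in the same library as Reln, NestinCre EAE 1; their part in the result was not tested. That difference was 0.37 without NestinCre EAE 1 (adjusted p = 0.977) and 1.14 without fl EAE 4 or NestinCre EAE 4 (adjusted p = 0.136 and 0.148). The pairs in unipolar brush cell-like and monoaminergic neuron-like nuclei rested on 79 against 46 UMIs of Dab1 and on 35 UMIs of Reln in 68 fl EAE nuclei, and the former ran from -1.05 to -0.40 over 18 alternative settings. In monoaminergic neuron-like nuclei the summed granule cell markers were 470 to 879 CPM in fl EAE and 721 to 1345 CPM in NestinCre EAE libraries. They were highest in NestinCre EAE 3, which had the lowest Reln of its group (44.8 CPM). Their part in the result was not tested.

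Reln in mature oligodendrocyte-like nuclei varied more between libraries than between groups. It was at 36.4, 39.7, 42.5 and 111 CPM in fl EAE 1 to 4, at 54.0, 186, 48.2 and 36.3 CPM in NestinCre EAE 1 to 4, at 29.3 and 140 CPM in fl naive 2 and 3 and at 114 CPM in NestinCre naive 2. The 4 libraries above 110 CPM belonged to 4 different groups and were also the 4 with the highest summed granule cell markers, from 1368 to 1860.3 CPM against 573 to 1129 CPM in the other 7. A pair of clusters with 35.3% and 34.0% doublet calls held 70.3% to 81.3% of the Reln UMIs of this class in those 4 libraries. Without them Reln was at 24.4 to 48.9 CPM in all 11 libraries. The log2 fold change between genotypes in EAE was 0.57 (95% interval -0.75 to 1.89, adjusted p = 0.889), in a class where 0.394% of 12440 genes were called.

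**Figure D5:**
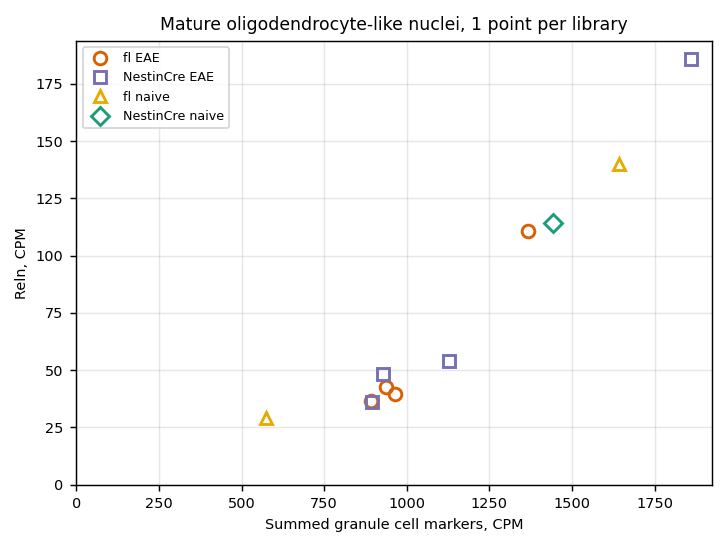
Reln (y axis, CPM) against the summed level of 9 granule cell markers (x axis, CPM) in mature oligodendrocyte-like nuclei, with 1 open symbol per library and a colour and shape per group. The 4 libraries with the highest Reln, from 111 to 186 CPM, are those with the highest granule cell markers; fl EAE 1 and NestinCre EAE 4 lie almost on the same spot.

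The state of disease was compared next, EAE against naive, from a fit of all 11 libraries with the run in the model. In fl mice only run 2 held both states, so the estimate rests mostly on fl EAE 4 against fl naive 2. With the run in the model fl naive 3 carries no weight in it, and fl naive 2 could not be left out. The naive libraries of both genotypes are fitted exactly in this model. All spread in its tests therefore comes from the EAE libraries. The naive libraries, among them the lone NestinCre naive library, are taken to share that spread. No run held both states of NestinCre mice, so their estimates are linked through the fl libraries of the same runs. Across all classes 0.047% of 133962 tests were called in fl mice. Of 45 member tests 0 were called (smallest adjusted p 0.171, edgeR), 4 had an unadjusted p under 0.05, and DESeq2 called 0 with 1 at that level. By share, 8.89% of member tests and 8.05% of all tests were under an unadjusted p of 0.05 in edgeR. Reln in astrocyte-like nuclei was at 109.6, 86.1, 86.8 and 76.2 CPM in fl EAE 1 to 4 and at 195 and 191 CPM in fl naive 2 and 3, so that both naive libraries lay above all 4 EAE libraries. The log2 fold change was -1.23 (95% interval -2.0 to -0.47, adjusted p = 0.171), and it ran from -1.27 to -0.71 over 19 alternative settings (adjusted p 0.0501 to 0.758). These settings include the omission of fl naive 3 but not of fl naive 2, the naive library on which the estimate rests. In the NestinCre groups the astrocyte-like values were 84.0, 130, 126 and 116 CPM in EAE and 146 CPM in the naive mouse. The summed granule cell markers of astrocyte-like nuclei were 394 to 632 CPM in fl EAE, 455 to 708 CPM in NestinCre EAE and 427 to 767 CPM in fl naive libraries, and 610.1 CPM in NestinCre naive 2; their part in the result was not tested.

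Reln in Purkinje cell-like nuclei had a log2 fold change of 1.63 in fl mice (adjusted p = 0.692), which was -0.017 without fl EAE 4, the library with the high granule cell markers in this class. Dab1 in unipolar brush cell-like nuclei differed by 1.48 (adjusted p = 0.999), which was 0.45 to 1.76 when single libraries were left out (lowest without fl EAE 4), 0.30 without the run in the model and -0.015 without the removal of doublets. Vldlr in inhibitory neuron-like nuclei differed by 0.36 (adjusted p = 0.447). Lrp8 in granule cell-like nuclei was at 46.6 to 55.5 CPM in the fl EAE and 41.8 to 56.3 CPM in the NestinCre EAE libraries, below the 68.9, 67.9 and 58.2 CPM of fl naive 2, fl naive 3 and NestinCre naive 2. With the run in the model the difference in fl mice was -0.17 (adjusted p = 0.603), and it lay between -0.35 and -0.15 over 19 alternative settings (adjusted p 0.459 to 0.885). The fitted values carry the run term and TMM factors, a scaling between libraries, and the CPM carry neither. The part of each in the gap between the levels and the fitted value was not tested.

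In NestinCre mice 0.0224% of all tests were called and 0 of 45 member tests (smallest adjusted p 0.445, 4 at an unadjusted p under 0.05, DESeq2 0 with 1). By share, 8.89% of member tests and 6.55% of all tests were under an unadjusted p of 0.05 in edgeR. In the fit with the run, Dab1 in inhibitory neuron-like nuclei was lower in EAE by 0.36 on the log2 scale. Without the run in the model the difference turned to 0.094. By level, the NestinCre EAE libraries were at 1142 to 1194 CPM, all above NestinCre naive 2, whose level is given below. The run term also brings the gap between fl naive 2 and fl naive 3 into the fitted value. The difference was 0.58 for Vldlr in inhibitory neuron-like (adjusted p = 0.513), 1.61 for Reln in Golgi cell-like (adjusted p = 0.824) and 1.72 for Lrp8 in astrocyte-like nuclei (adjusted p = 0.810). Over 16, 15 and 16 alternative settings these ran from 0.058 to 0.65, from 1.14 to 2.56 and from 0.13 to 2.04. No naive library could be left out in these settings. Lrp8 in astrocyte-like nuclei had not reached the minimum count in the fit of the EAE libraries alone. It had 137 UMIs over all 11 libraries, at 24.0 to 87.4 CPM.

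The genotypes were compared in naive mice, of which there were 1 NestinCre and 2 fl libraries. Only run 3 held both genotypes of naive mice. With the run in the model the fitted difference therefore rests on NestinCre naive 2 against fl naive 3, and fl naive 2 carries no weight in it. Across all classes 0.00149% of tests were called. None of the 45 member tests was called (smallest adjusted p 0.477), 4 had an unadjusted p under 0.05, and DESeq2 called 0 with 2 at that level. By share, 8.89% of member tests and 4.34% of all tests were under an unadjusted p of 0.05 in edgeR. The 4 were Reln (0.38) and Dab1 (0.30) in inhibitory neuron-like nuclei, Vldlr in oligodendrocyte progenitor-like nuclei (-1.69) and Lrp8 in astrocyte-like nuclei (-1.39), as log2 fold changes. Over 18 alternative settings Reln ran from 0.25 to 2.54, the highest under the limit of 6000 UMIs (adjusted p = 0.433), in a class with a median of 10067 UMIs in fl EAE mice, and Dab1 from 0.061 to 0.35. The single libraries left out in these settings never included NestinCre naive 2 or fl naive 3, on which the fitted difference rests. Dab1 in inhibitory neuron-like nuclei was at 1114 CPM in NestinCre naive 2, between the 1182 CPM of fl naive 2 and the 943 CPM of fl naive 3, and only the latter came from the same run. Vldlr in progenitor-like nuclei was at 23.6 CPM in NestinCre naive 2 and at 62.6 and 80.2 CPM in fl naive 2 and 3. Whether the genotype effect differed between EAE and the naive state was tested with an interaction term. For it 0.00149% of all tests were called, and 0 of 45 for the members (smallest adjusted p 0.702, 3 at an unadjusted p under 0.05, DESeq2 0 with 1). By share, 6.67% of member tests and 5.04% of all tests were under an unadjusted p of 0.05 in edgeR. A difference between the genotype effects in EAE and in naive mice was thus not detected for any member in the 13 classes, and these comparisons share libraries. The naive part of the interaction rests on NestinCre naive 2 against fl naive 3 alone.

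A list of 56 further genes of the pathway in 12 roles was followed in the same fits. In the genotype comparison in EAE, 54 of them gave 496 tests, of which 2 were called higher and 2 lower in the NestinCre EAE group, or 0.806%, close to the 0.834% of all tests. DESeq2 called 5. In edgeR 30 of the 496 tests had an unadjusted p under 0.05, beside 7.37% of all tests. The class medians of their log2 fold changes lay between -0.06 and 0.04, those of all genes between -0.01 and 0.02.

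Of the genes that process the ligand, Adamts2, a metalloprotease that cleaves Reelin, was lower in mature oligodendrocyte-like nuclei of the NestinCre EAE group. It was at 72.4, 74.1, 105.6 and 81.7 CPM in fl EAE 1 to 4 and at 30.6, 26.4, 43.4 and 36.1 CPM in NestinCre EAE 1 to 4, without overlap. This gave a log2 fold change of -1.30 (SE 0.19, adjusted p = 0.0314). The naive libraries were at 161 CPM (fl naive 2), 49.9 CPM (fl naive 3) and 98.8 CPM (NestinCre naive 2) and so spanned a wider range than the EAE libraries. Over 19 alternative settings the log2 fold change stayed between -1.46 and -1.05, and the call was lost in 6 of them, without fl EAE 1 (adjusted p = 0.129), fl EAE 2 (0.106), fl EAE 4 (0.0562), NestinCre EAE 1 (0.146) or NestinCre EAE 4 (0.0579) and within run 1 (0.0540).

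The other 3 calls were in microglia-like nuclei, where 6.09% of 7146 genes were called, and 2 of them are described here. Serpine2, an inhibitor of serine proteases that include tissue plasminogen activator, was at 190.4, 206, 137 and 139 CPM in fl EAE 1 to 4 and at 56.7, 41.5, 96.7 and 127 CPM in NestinCre EAE 1 to 4 (log2 fold change -0.97, SE 0.26, adjusted p = 0.0303). Apoe, the apolipoprotein that also binds both Reelin receptors, was at 220.5, 156, 182 and 132 CPM in fl EAE 1 to 4 and at 390.3, 287, 470.1 and 165 CPM in NestinCre EAE 1 to 4 (0.91, SE 0.20, adjusted p = 0.00704). Groups did not overlap for Serpine2 and overlapped for Apoe. In the same nuclei the summed level of 10 markers of infiltrating phagocytes was 22.3 to 42.1 CPM in fl EAE and 90.7 to 322 CPM in NestinCre EAE libraries, with 0 of the 10 at 0 over all libraries. The summed granule cell markers were 1359 to 1724 CPM in fl EAE and 1039 to 1338 CPM in NestinCre EAE libraries. Markers of border-associated macrophages, of which 1 of 8 was at 0, summed to 124 to 386 CPM and 216 to 729 CPM in these groups. The part of the 3 lists in these results was not tested. Without the removal of doublets neither passed, with log2 fold changes of -1.02 for Serpine2 (adjusted p = 0.0991) and 0.78 for Apoe (adjusted p = 0.101). Leaving out fl EAE 1, fl EAE 2, NestinCre EAE 1 or NestinCre EAE 2 ended the call of Serpine2 (log2 fold change -0.90 to -0.81, adjusted p 0.0714 to 0.104), whereas Apoe passed without any single library. Serpine2 also missed the threshold without the run in the model (-0.92, adjusted p = 0.0509).

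By role, the kinases that phosphorylate Dab1 (Fyn, Src and Yes1), the Crk, Rapgef1 and Rap1 branch and the Lis1 complex had 0 calls. The genes of Dab1 turnover, the Cdk5 pathway and the receptors related to Vldlr and Lrp8 also had 0 calls in any class. In this order, 1 of 33, 2 of 68, 4 of 44, 3 of 39, 1 of 19 and 2 of 27 tests had an unadjusted p under 0.05 in edgeR. Of all tests of the genotype in EAE, 7.37% were under that p and 0.834% were called. DESeq2 called 1 further gene, Dab2ip, a Dab1- and Dab2-binding regulator of Ras, in granule cell-like nuclei (log2 fold change -0.25, adjusted p = 0.0331). Between EAE and the naive state in fl mice, 55 genes of the list gave 586 tests with 0 calls in edgeR, 53 at an unadjusted p under 0.05 and 2 calls in DESeq2. Of all tests in edgeR 8.05% were under that unadjusted p and 0.047% were called. The class medians of the list lay between -0.09 and 0.09, those of all genes between -0.01 and 0.05.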

How the data were processed

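The authors deposited 1 matrix of UMI counts per library, without normalization. According to the study, reads were mapped to GRCm39 (GENCODE genes) by Cell Ranger, which also counted introns and called nuclei. The headers give version 7.0.0 in run 1 but 6.0.2 in the other runs, while the labels name 6.0.2 for all. The members and lists were chosen with earlier results of these data known.

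Nuclei with at least 200 (run 1) or 500 genes (runs 2 and 3) and under 5% mitochondrial UMIs were kept. The top-scored 0.8% per 1000 barcodes were left out as doublets, with clusters holding over 40% of such nuclei. The 40 components of 3000 variable genes, without the members, were corrected for differences between libraries by the Harmony method. The correction thus also acts across genotypes and disease states. On the corrected components nuclei were clustered with scanpy 1.11.5 by the Leiden method at resolution 2 and then 6 (Python 3.11.15, igraph 0.11.9). Clusters were named "-like" from at least 3 of their markers at 20 CPM and 2 times a baseline. The baseline was first the median cluster and then the median over the mean profiles of the named types. For this fold 20 CPM was added to both sides. Extra rules on marker and transmitter genes held for some neuron classes. UMIs were summed per library and class.

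Classes with at least 10 nuclei in every library were fitted in edgeR 4.0.16 (R 4.3.3) with TMM factors, filterByExpr and the quasi-likelihood test, and the adjusted p is Benjamini-Hochberg within a class, with a threshold of 0.05. The genotype in EAE was fitted on the 8 EAE libraries and the other comparisons on all 11, with run as a covariate. Levels are CPM with the SD over libraries. The deposited depth was 40761007 to 86063464 UMIs per library. The counting error of a level depends on the UMIs of the gene in its class and library. Named genes were the members in every tested class, pathway genes past the threshold, and 3 genes of like pattern per member. Some results of single pathway genes are not reported here. Alternatives were DESeq2 1.42.0, library sizes only, no filter, no run term, no doublet removal, under 6000 UMIs and lower Leiden resolutions. Others left out doublet-rich clusters, or each library where the comparison could still be fitted. The last were run 1 alone, all 11 libraries in 1 fit, and a replicate block. The tests were checked on simulated counts.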

Additional observations from a re-analysis of the deposited data

Results flagged for a closer look

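In each group of 4 libraries, the level of each member in each class was examined for a highest or lowest library far from the other 3, with a gap to the nearest of them that, as a share of the group's range, was above Dixon's 95% critical value. Chance flags about 1 in 20 groups, and 8 of 104 groups (7.69%) were flagged. Of these, 4 were values of the library fl EAE 4. Reln in granule cell-like nuclei was at 1210.1 CPM in fl EAE 4 against 1089.9 to 1110.0 CPM in fl EAE 1 to 3. Reln in Purkinje cell-like nuclei was at 110.2 CPM in fl EAE 4 against 13.2 to 26.8 CPM, and Reln in mature oligodendrocyte-like nuclei at 111 CPM against 36.4 to 42.5 CPM. Lrp8 in inhibitory neuron-like nuclei was at 115 CPM in fl EAE 4 against 97.9 to 100.6 CPM. In mature oligodendrocyte-like nuclei of NestinCre EAE 2, Reln was at 186 CPM against 36.3 to 54.0 CPM in the other 3 libraries of the group, and Dab1 at 161 CPM against 67.4 to 69.4 CPM. Dab1 in inhibitory neuron-like nuclei was at 1194 CPM in NestinCre EAE 4 against 1142 to 1150.5 CPM. Reln in monoaminergic neuron-like nuclei was lowest in NestinCre EAE 3, at 44.8 CPM from 6 UMIs, against 127 to 141 CPM. The values of fl EAE 4 and NestinCre EAE 4 come from run 2, while the other 3 libraries of each group come from run 1, so that run and library cannot be told apart there. No interaction of genotype and disease state was called for any member in the 13 classes.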

How the results depend on the processing

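Of 27 pairs of member and class followed in their comparison, 468 of 482 values under the alternatives kept the direction and the side of the threshold, 9 reversed and 5 newly passed. In EAE the genotype comparison called 0 members, but 2 without the filter on low counts (Reln in oligodendrocyte progenitor-like and monoaminergic neuron-like nuclei), 1 without the removal of doublets and 0 to 1 when single libraries were left out. Reversed values were all small or rested on few nuclei. Leaving out single libraries moved Reln in granule cell-like nuclei between -0.031 and 0.13, Dab1 in Purkinje cell-like nuclei between -0.079 and 0.038 (0.0011 in DESeq2), and Reln in Purkinje cell-like nuclei between EAE and naive fl mice from -0.017 to 2.00. Dab1 in unipolar brush cell-like nuclei of fl mice was -0.015 without the removal of doublets, and Dab1 in inhibitory neuron-like nuclei of NestinCre mice was 0.094 without the run. The other pathway genes kept 4 calls between genotypes in EAE, with 1 to 5 over single omissions (1 without fl EAE 1, 2 without fl EAE 2 or NestinCre EAE 1), and between EAE and naive fl mice had 2 calls in DESeq2, 2 without the filter and 0 to 4 over single omissions (4 without NestinCre EAE 4). Under a limit of 6000 UMIs the fl EAE mean in Purkinje cell-like nuclei was 3285 CPM for Dab1 and 219 CPM for Lrp8, and without the removal of doublets Vldlr in mature oligodendrocyte-like nuclei was at 137 CPM. The cause of these changes was not tested.

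Within run 1 the replicate numbers gave no sign of a pairing of the libraries. Over 39 pairs of the same number the deviations from the group means correlated at -0.127 to 0.0901. Over 78 pairs of different numbers they correlated at -0.115 to 0.129. With so few libraries per group this cannot exclude a pairing. With a replicate block in place of the run, 0 members and 4 other pathway genes were called between genotypes in EAE.

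Depth limits the rare classes. Unipolar brush cell-like, monoaminergic neuron-like and Golgi cell-like nuclei held 115, 68 and 151 nuclei over the 4 fl EAE libraries. The comparisons with naive mice rest on groups of 1 or 2 naive libraries. Intervals there can be wide. An exception was Dab1 in Golgi cell-like nuclei, where the member was high and the interval between genotypes in EAE was narrow. Microglia-like nuclei, not known to make Reelin, had 42.0 ± 12.9 CPM of Reln in fl EAE mice, and levels near this are read as background. Leaving out clusters with over 25% doublet calls was chosen after the data had been seen.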

Other observations

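For each member, the genes with the most similar pattern were sought by the Pearson correlation of log2(CPM + 1) over the 14 class means, among 11598 genes at 20 CPM or more in at least 1 class. The points share libraries and the classes come from clusters of the same nuclei, so these values are descriptions. For Reln the nearest were Kcnj12 (r = 0.905), an inward rectifier potassium channel, the predicted gene Gm42583 (0.894) and Kcnd2 (0.884), a channel of A-type potassium currents. For Dab1 they were Fstl4 (0.948), the arginine methyltransferase Prmt8 (0.939) and Gm43174 (0.921). For Lrp8 they were Itgbl1 (0.929), the T-type calcium channel Cacna1g (0.926) and Bicdl1 (0.909). For Vldlr they were Gm47590 (0.872), Reps2 (0.838) and Ppp1r16b (0.802), the weakest likeness of the 4 members.

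The promoter letters TTCNNNGAA, the spaced palindrome known from binding sites of STAT proteins, were in 0 of the 8 RefSeq promoters of the members and in 8.30% of all 32851 promoters of the same length. A lack of these letters in a window of 300 bases says nothing of binding elsewhere.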
